A study of Chlorocebus aethiops with 8 samples.

Results

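The translation factors described here are the genes whose symbol begins with EIF or EEF, the initiation and elongation factors of protein synthesis and a few proteins named after them. They were chosen as all probe sets listed with a single such symbol, leaving out the EIF2AK kinases and EEF2K. The choice gave 98 probe sets for 44 genes, of 52865 probe sets and 14133 singly named genes in all. Of these, 84 probe sets for 42 genes were bright enough on average to be tested. Another 10 lay below the limit for testing, a mean log2 intensity of 4.32 over all arrays (an intensity of 19.9), and the remaining 4 were array control probe sets of EEF1A1.

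The RNA came from COS cells, an established line grown from African green monkey kidney, and was hybridised to 8 Affymetrix rhesus macaque arrays, whose probes were designed for a related species. Cells received either siRNAs directed to the coding region of RNA helicase A (RHA, the product of DHX9) or scrambled control siRNAs, in both cases at 0.5 nM on 7 plates of 100 mm. All cells spent 4 h without serum and 24 h in 10% FBS, and were then split and transfected again. RNA was taken from cytoplasmic lysates and from polysome fractions of sucrose gradients, which gave 4 groups of 2 arrays: cytoplasm control, cytoplasm RHA siRNA, polysome control and polysome RHA siRNA. The arrays numbered 1 and 2 in the sample titles are called set 1 and set 2. The labels do not say that the sets were separate cultures, so p-values measure the spread between these arrays, which may be technical. Each array received the same small amount of amplified RNA, so a value is a share of the RNA applied, and less of an RNA per cell and fewer cells holding it cannot be told apart. The comparison asks whether lowering RHA, a helicase that unwinds structured RNA, altered the amount of each mRNA or its place on polysomes.

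Translation begins when eIF2, charged with GTP and the initiator tRNA, joins the small ribosomal subunit, and eIF2B recharges it with GTP for another round. The large eIF3 complex holds the initiating subunit together, and the eIF4 factors recognise the mRNA cap (eIF4E), bridge it to eIF3 (eIF4G) and unwind the leader (eIF4A). In elongation, eEF1A brings each aminoacyl-tRNA, the eEF1B subunits recharge eEF1A, and eEF2 moves the ribosome along the mRNA. Several of these mRNAs carry a 5' terminal oligopyrimidine (TOP) tract, through which their translation follows growth signals.

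The genes fell into 5 subgroups: 7 of eIF2 and its partners, 11 of eIF3, 8 of eIF4, 8 other initiation factors and 10 of elongation. All were tested except EEF1A1, read by control probe sets, and EEF2, whose single probe set had intensities between 9.39 and 15.7. Most tested genes of the elongation group are factors that modify eEF1A or eEF2 or serve elsewhere: EEF1AKMT1, EEF1AKMT2, EEF1AKMT3, EEF2KMT, EEF1E1 and EEFSEC. The others are EEF1A2 and EEF1D, so the elongation medians below mostly describe factors other than eEF1A, eEF1B and eEF2. By symbol alone, EIF5A, EIF5A2 and EIF1AD were counted among the other initiation factors, so that group was formed by name and not by role. Each gene was read by its brightest probe set unless stated otherwise, and 20 genes had more than 1 tested probe set. Values of different probe sets were not ranked against each other, since brightness depends on the probes. Of the genes looked for by name, EIF2B2, EIF2B4, EIF3C, EIF3G, EIF4A1, EIF4A3, EIF4B, EIF4EBP1, EIF4EBP2, EIF4H, EIF1AX, EEF1B2 and EEF1G were not analysed here.

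Some properties of the arrays bear on every value below. The array medians lay between 19.3 and 20.8. The sets differed widely. With the group as a further term, limma gave an adjusted p under 0.05 between sets for 39 of the 84 translation factor probe sets, against 51.3% of all 26383 probe sets tested. The set 1 array of cytoplasm control was the least like its own set: its median correlation across probe sets was 0.949, and no other array fell below 0.967. For the subgroup medians, and for genes whose value it moves most, the value without this array is given too. Vimentin (VIM, mean log2 12.26) and laminin beta 1 (LAMB1, 9.60) were bright. The tubule genes UMOD (3.36), SLC12A1 (3.39), LRP2 (3.12) and CUBN (4.01) were below the test limit, and AQP2 (4.70) was just above it. DHX9 itself, by its only tested probe set, was lower in all 4 comparisons within a set, at 49.5% of the control over both fractions. Its limma adjusted p was 1.00, and 0.162 when the set was added to the model (the replicate block). The other DHX9 probe sets lay below the test limit, at 63.0%, 99.8% and 80.5% of the control. None of those was lower in all 4 comparisons.

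No translation factor passed the test in any comparison. In limma's fit of the 4 groups, 0 of 84 probe sets had an adjusted p under 0.05 for RHA against control siRNA in cytoplasm, in polysomes or over both fractions, and 0% of all probe sets did. At an unadjusted p under 0.05 the counts were 3 in cytoplasm (background 1.61%), 1 in polysomes (0.519%) and 3 over both fractions (2.05%). With the replicate block the adjusted calls among translation factors were again 0, against 0%, 0% and 0.00758% of all probe sets. The unadjusted counts were then 14 in cytoplasm (background 12%), 9 in polysomes (5.06%) and 14 over both fractions (12%). The values below therefore describe sizes and directions on these arrays, and "higher" or "lower" is said of measured values that did not pass the test.

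Over both fractions, 14 of the 84 probe sets were higher with RHA siRNA in all 4 comparisons within a set, and 7 were lower in all 4. The background was 9.81% for higher and 8.99% for lower. By brightest probe set, 8 of 42 genes were higher in all 4 comparisons and 4 were lower. In EIF4E2, EIF1B and EIF2S1 all 4 RHA siRNA arrays, of both fractions together, lay above all 4 control arrays. EIF3I was lower in this way. Such non-overlap of all 4 arrays with all 4 was seen in 1.43% of all probe sets for higher and 1.38% for lower.

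EIF3I encodes subunit i of eIF3, a WD-repeat protein that attaches to the eIF3 core. In cytoplasm control intensity was 4040 in set 1 and 2490 in set 2, against 1623 and 1297 with RHA siRNA. In polysomes it was 2842 and 3195 on the control arrays, and 1813 and 1973 with RHA siRNA. Each RHA siRNA array was below both control arrays of its fraction. Mean log2 intensity was 11.63 ± 0.49 (SD, n = 2) in cytoplasm control and 10.50 ± 0.23 (SD, n = 2) in cytoplasm RHA siRNA. The log2 fold change over both fractions was -0.90 (SE 0.25), which is 53.6% of the control, with a limma adjusted p of 1.00 and of 0.167 with the replicate block. It was -0.98 in set 1 and -0.82 in set 2. Without the cytoplasm control array of set 1 it was -0.73, so the direction and most of the size did not rest on that array. A dimmer EIF3I probe set gave -0.77 over both fractions. Its cytoplasmic values of 334 and 452 for control against 378 and 289 for RHA siRNA overlapped, and the sets went opposite ways there.

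EIF4E2 encodes 4EHP, a relative of eIF4E that binds the cap but not eIF4G and is known as a repressor of chosen mRNAs. In cytoplasm the control arrays read 296 and 403, and the RHA siRNA arrays 685 and 808. In polysomes the control arrays read 385 and 451, and the RHA siRNA arrays 500 and 780. All RHA siRNA arrays were above both controls of their fraction. The log2 fold change was 0.84 (SE 0.26), a fold of 1.80, with a limma adjusted p of 1.00 and of 0.146 with the replicate block, the smallest block value among the translation factors in this comparison. It was 0.73 without the cytoplasm control array of set 1. EIF4E2 had a single tested probe set.

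EIF1B, a close relative of the start codon scanning factor EIF1, read 156 and 208 in cytoplasm control and 321 and 298 in cytoplasm RHA siRNA. In polysomes it read 209 and 195 in control and 216 and 270 in RHA siRNA, so that set 1 hardly differed there. The log2 fold change over both fractions was 0.52 (SE 0.23, limma adjusted p = 1.00). EIF1 itself was also higher in all 4 comparisons by both of its tested probe sets, at 0.14 and 0.34 on the log2 scale. Both were designed on the same transcript, so they are not separate evidence.

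EIF2S1 encodes eIF2 alpha, the subunit whose phosphorylation slows initiation. Its cytoplasmic intensity was 1982 and 1895 in control and 2233 and 2126 in RHA siRNA. In polysomes it was 1836 and 1724 in control and 3023 and 2240 in RHA siRNA. The groups did not overlap in either fraction, and the polysomal RHA siRNA array of set 1 was the highest of the 8. The log2 fold change was 0.36 (SE 0.22, limma adjusted p = 1.00). The 3 other tested probe sets of EIF2S1 gave -0.03, 0.13 and 0.53 and were not of 1 direction in all 4 comparisons, so the pattern belongs to the brightest probe set.

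**Figure D1:**
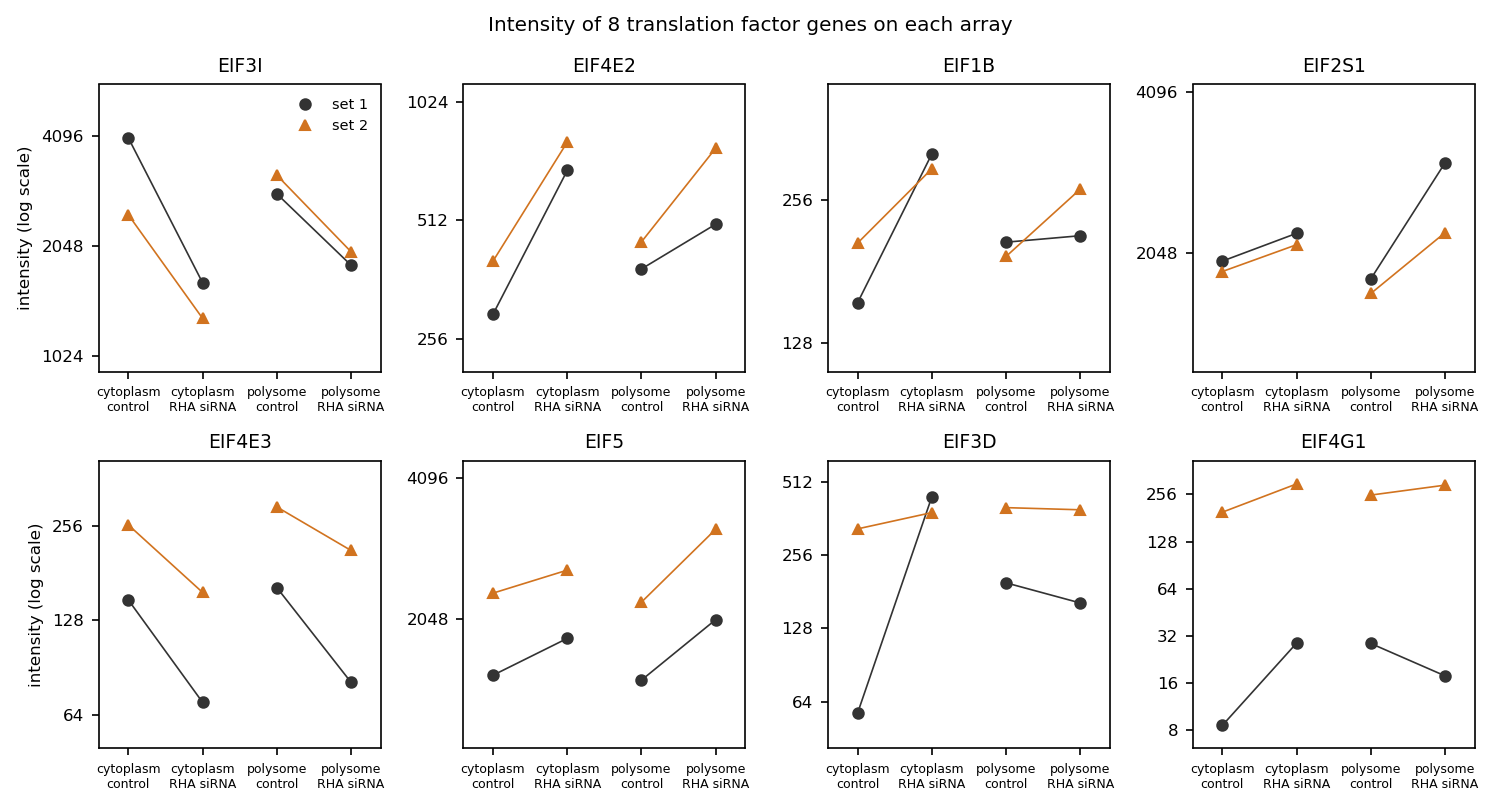
Intensity on a log axis of the brightest probe set of 8 translation factor genes on each array, with circles for set 1 and triangles for set 2 and lines joining control and RHA siRNA of a set within a fraction. EIF3I ran from 4040 and 2490 down to 1623 and 1297 in cytoplasm, while EIF3D differed between the siRNAs mainly through 1 cytoplasm control array at 57.6.

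EIF5 and EIF4E3 were measured several times over, and their probe sets shared a direction. EIF5, which makes eIF2 hydrolyse its GTP at the start codon, had 5 tested probe sets. All 5 were above 0 over both fractions, from 0.34 to 1.23 on the log2 scale, and 4 of them were higher in all 4 comparisons within a set. The brightest read 1552 and 2326 in cytoplasm control, 1861 and 2605 in cytoplasm RHA siRNA, 1515 and 2225 in polysome control, and 2041 and 3188 in polysome RHA siRNA. Here the sets differed more than the siRNAs: within a set RHA siRNA was always higher, and across sets the groups overlapped. Its log2 fold change was 0.34 (SE 0.30, limma adjusted p = 1.00), and 0.20 without the cytoplasm control array of set 1. The probe sets at 1.18 and 1.23 were designed on the same transcript, so they are not separate evidence. The brighter of these read 123 on the cytoplasm control array of set 1 against 272 or more on every other array.

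EIF4E3, another cap-binding relative of eIF4E, was lower. Its brightest probe set read 149 and 257 in cytoplasm control, 70.2 and 157 in cytoplasm RHA siRNA, 163 and 293 in polysome control, and 81.3 and 213 in polysome RHA siRNA. Set 1 was below set 2 in each group, and within each set and fraction RHA siRNA was below control. The log2 fold change was -0.81 (SE 0.47), or 56.9% of control, with a limma adjusted p of 1.00 and of 0.166 with the replicate block. All 3 tested probe sets were below 0, from -0.81 to -0.21, and 2 were lower in all 4 comparisons. The fourth lay below the test limit.

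Other genes with several probe sets gave mixed readings. EIF2S2, the beta subunit of eIF2, had 2 tested probe sets above 0 and 3 below, of which 1 carries another gene ID in the annotation and may read another gene. EIF4A2, the helicase subunit of eIF4F, had 4 above 0 while its brightest was at -0.07. EIF4G3, a scaffold related to eIF4G1, had its brightest at 0.40 and the other 2 below 0. EIF5A2 and EIF5B, a relative of EIF5A and the factor that joins the ribosomal subunits, each had 2 above and 2 below. For such genes the direction differed from probe set to probe set.

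**Figure D2:**
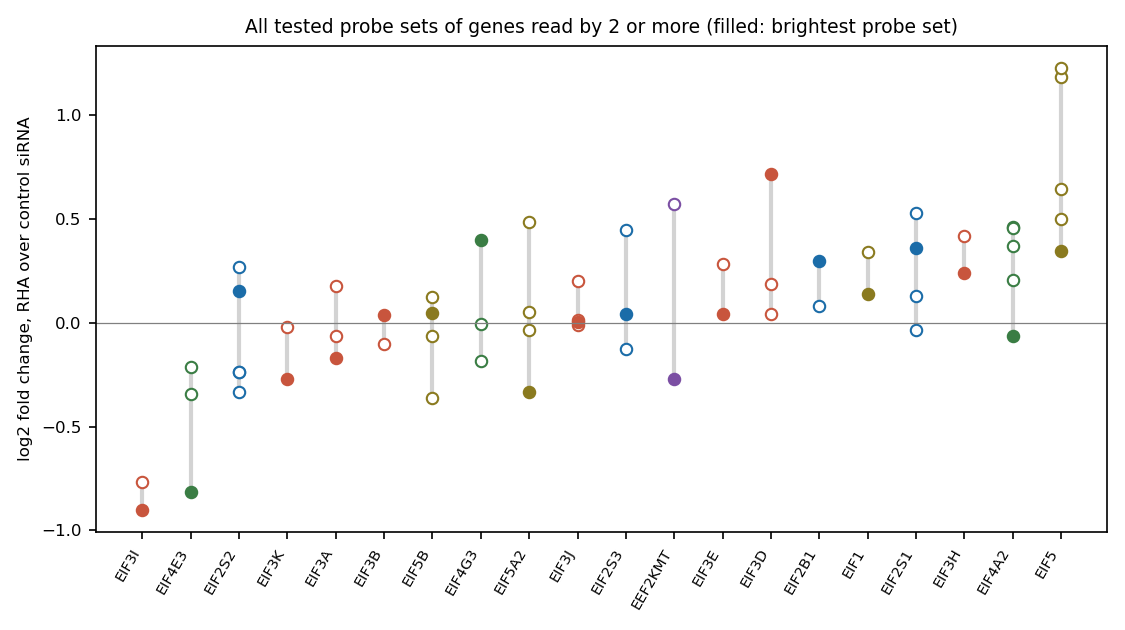
The log2 fold change of RHA over control siRNA, mean of both fractions, for every tested probe set of the 20 genes with more than 1; filled points are the brightest of a gene, colours are the subgroups and grey lines span a gene's range. EIF3I and EIF4E3 lie below 0 and EIF5 above 0 with all probe sets, while EIF4A2 and EIF5A2 span both sides.

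In cytoplasmic RNA, 34 of 84 probe sets were higher with RHA siRNA in both sets (background 27.3%) and 16 were lower (23.6%). Without regard to set, 15 of 84 were higher in RHA siRNA without overlap of the 2 groups (background 10.5%) and 4 were lower (8.9%). Among brightest probe sets without overlap, the largest of the higher ones were EIF3D, EIF3L and EIF4E2, at log2 fold changes of 1.59 (SE 0.89), 1.14 (SE 0.57) and 1.11 (SE 0.37), each with a limma adjusted p of 1.00. EIF3D, an eIF3 subunit known to bind the cap of some mRNAs, read 57.6 and 328 in control and 445 and 383 in RHA siRNA. EIF3L, a peripheral eIF3 subunit, read 115 and 286 in control and 404 and 393 in RHA siRNA. In both, most of the difference lay in set 1, and without the cytoplasm control array of set 1 EIF3D was at 0.33 and EIF3L at 0.48, while EIF4E2 was at 0.88. Those lower without overlap were EIF3I (-1.13, SE 0.36), the eIF3 scaffold subunit EIF3A (-0.37, and -0.06 without that array) and EIF5A2 (-0.37). The probe sets of EIF3A disagreed here. A dimmer one read 42.8 and 63.3 in control and 78.8 and 70.7 in RHA siRNA, higher without overlap, and a further tested one overlapped. For EIF3D the dimmer tested probe sets overlapped, at 21 and 122, and 12.4 and 95.9, in control. With RHA siRNA these read 27.7 and 128, and 25.1 and 67.2. EIF4G1 (1.17) and EIF4E3 (-0.90) were also far from 0, but their groups overlapped. Without the cytoplasm control array of set 1 EIF4G1 turned to -1.09, and EIF4E3 was at -1.29. Within each set, however, EIF4G1 read higher with RHA siRNA, from 8.62 to 28.8 in set 1 and from 197 to 298 in set 2. The difference between the sets thus enters its value of -1.09.

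In polysomal RNA, 26 of 84 probe sets were higher with RHA siRNA in both sets (background 27.9%) and 18 were lower (25.6%). Without regard to set, 10 of 84 were higher in RHA siRNA without overlap (background 7.91%) and 5 were lower (7.79%). Among brightest probe sets without overlap, EIF4E2 (0.58), EIF2S1 (0.55) and EEF1E1 (0.39), a partner of the aminoacyl-tRNA synthetase complex, were the largest of the higher ones. EEF1E1 read 494 and 568 in polysome control and 761 and 636 in polysome RHA siRNA. EEF1A2, the eEF1A form known from muscle and neurons, had the most negative value of those without overlap at -1.01 (SE 0.55, limma adjusted p = 1.00), followed by EIF3I (-0.67) and the eIF3 subunit EIF3K (-0.40). EEF1A2 read 212 and 77.2 in polysome control and 59.7 and 67.5 in polysome RHA siRNA, so the size came from the control array of set 1, and in set 2 alone it was -0.19. The tested probe sets of EIF3K disagreed. A dimmer one read 35.7 and 16.5 in polysome control and 41.2 and 17.2 in polysome RHA siRNA, higher in both sets.

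The subgroups moved little, and several not in the same direction in both sets. Over both fractions the median log2 fold change was 0.10 for eIF2 genes (6 of 7 above 0), 0.04 for eIF3 (8 of 11), 0.11 for eIF4 (4 of 8), 0.02 for elongation (4 of 8) and 0.20 for the other initiation factors (6 of 8). Over all 42 genes it was 0.11, with 28 above 0, against 0.03 over the 10106 genes tested. The median over all 42 was 0.28 in set 1 and -0.00 in set 2, so it came from set 1 alone. Within set 2 it was -0.03 for eIF2, -0.14 for eIF3, 0.02 for eIF4, -0.01 for elongation and 0.21 for the other initiation factors. In set 1 these medians were 0.35, 0.24, 0.20, 0.05 and 0.27, so the other initiation factors were alike in both sets. Without the cytoplasm control array of set 1 the median of all 42 was -0.01, with 20 of 42 above 0. By subgroup it was then 0.03 for eIF2 (5 of 7 above 0), -0.08 for eIF3 (4 of 11), 0.00 for eIF4 (4 of 8), -0.18 for elongation (2 of 8) and 0.22 for the other initiation factors (5 of 8).

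The 3 subunits of eIF2 lay above 0 over both fractions, from 0.04 to 0.36, as did the 3 measured subunits of eIF2B, from 0.02 to 0.30. Without the cytoplasm control array of set 1, however, EIF2S3 was at -0.34, and EIF2B1 went from 0.30 to 0.03. EIF2S3 was 3.32-fold brighter in set 2, and this set difference enters its value. Within set 2 it rose from 433 to 567 in cytoplasm and from 439 to 448 in polysomes with RHA siRNA. Within set 1 it went from 152 to 158 and from 143 to 116. In eIF3, EIF3D (0.72) and EIF3L (0.39) were farthest above 0 and EIF3I (-0.90) farthest below. Without the cytoplasm control array of set 1 EIF3D was at 0.09, EIF3L at 0.06 and EIF3I at -0.73. Among cap-binding proteins EIF4E2 stood at 0.84, EIF4E at -0.44 and EIF4E3 at -0.81. EIF4E, the main cap-binding protein, was dim: 53.6 and 31.1 in cytoplasm control, 50.7 and 32 in cytoplasm RHA siRNA, 100 and 34.4 in polysome control, and 41.2 and 25.1 in polysome RHA siRNA. The scaffold-related EIF4G2 hardly differed (-0.02). Of the other initiation factors, EIF6, which keeps free large subunits from joining, read 443 and 599 in cytoplasm control and 857 and 986 in cytoplasm RHA siRNA. In polysomes the sets disagreed on EIF6, with 676 and 760 in control and 551 and 1127 in RHA siRNA.

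**Figure D3:**
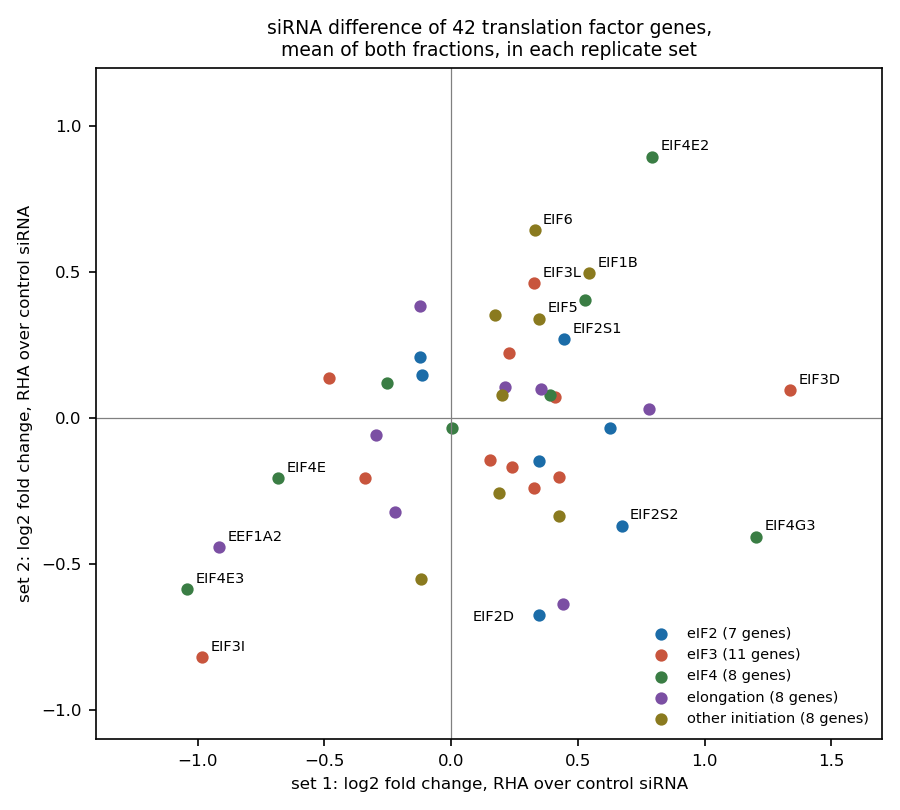
Each point is the brightest probe set of 1 of 42 genes, placed by its log2 fold change of RHA over control siRNA (mean of both fractions) in set 1 and in set 2. EIF4E2 and EIF3I lie far from 0 in both sets, at 0.84 and -0.90 on average, while EIF3D and EIF4G3 lie far out in set 1 only.

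The change in polysome loading is the siRNA difference in polysomes minus that in cytoplasm. By limma, 0 of 84 probe sets passed (0% of all probe sets, with and without the replicate block). At an unadjusted p under 0.05 there were 0 (background 0.174%), and with the block 2 (3.97%). Both sets were above 0 for 19 of 84 probe sets (background 26.1%) and below 0 for 22 (24%). EIF3D (-1.74, SE 1.25), EIF4G1 (-1.41, SE 3.03) and EIF4E (-0.85, SE 0.88) were the most negative brightest probe sets with 1 direction in both sets. Dimmer EIF3D probe sets differed less. In cytoplasm control and RHA siRNA a tested one had mean log2 intensities of 5.66 and 5.89, and in polysomes 5.72 and 5.87. A further tested one had 5.11 and 5.36 in cytoplasm, and 5.34 and 5.17 in polysomes. EEF1D, a subunit of the eEF1A exchange factor, was highest at 0.64 (SE 0.61), followed by EEF1AKMT2 (0.57) and EIF5A (0.51), a factor that relieves stalled ribosomes. EIF5A was close to the test limit, between 15.1 and 28 on the 8 arrays.

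EIF4G1, the main eIF4F scaffold, shows how far the sets can differ. It read 8.62, 28.8, 28.7 and 17.8 in set 1, in the order cytoplasm control, cytoplasm RHA siRNA, polysome control and polysome RHA siRNA, and 197, 298, 253 and 293 in set 2. Set 2 was 13.6-fold brighter on average. Its loading value was -2.43 in set 1 and -0.39 in set 2. Without the cytoplasm control array of set 1 it was 0.85, a value that the set difference enters, since that group then holds set 2 alone. EIF3D was at -0.48 without that array. The core eIF3 subunit EIF3B (-1.57) was at -0.49 without it and EIF3L (-1.49) at -0.82, and neither had 1 direction in both sets.

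By subgroup, the median loading change was -0.08 for eIF2, -0.26 for eIF3, -0.44 for eIF4, -0.16 for elongation and 0.05 for the other initiation factors. Over all 42 genes it was -0.11 (16 of 42 above 0), against -0.03 over all genes. In eIF4 only EIF4E3 of the 8 genes was above 0, at 0.17. In set 1 the eIF4 median was -0.68, in set 2 it was -0.09, and without the cytoplasm control array of set 1 it was -0.09. Without that array the other medians were -0.03 for eIF2, -0.18 for eIF3, 0.31 for elongation and -0.06 for the other initiation factors. For eIF3 the sets gave -0.44 and 0.15. The size of the negative medians thus came mostly from set 1, which holds the array least like the others.

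Polysomal and cytoplasmic RNA were also compared directly, which asks how each mRNA was shared between ribosome-bound and total cytoplasmic RNA. By limma, 0 of 84 probe sets passed in control cells, with RHA siRNA or over both (0% of all probe sets in each, with and without the replicate block). At an unadjusted p under 0.05 the counts were also 0 in each (backgrounds 0.208%, 0.265% and 0.224%), and with the block 3, 0 and 4 (4.12%, 4.46% and 4.02%). Over both siRNAs, 12 of 84 were higher in polysomes in all 4 comparisons (background 8.67%) and 2 were lower (6.27%). The median over the 42 genes was 0.10, with 33 above 0, against 0.07 and 63.2% of all genes. Without the cytoplasm control array of set 1 it was -0.02, with 20 of 42 above 0. With the arrays of both siRNAs pooled, none of the 84 had all 4 polysome arrays above all 4 cytoplasm arrays (background 0.36%). None had all 4 below either (0.504%).

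All 8 eIF4 genes were above 0 over both siRNAs, with a median of 0.17 and a range of 0.01 to 0.35. With the set 1 cytoplasm control array left out only 5 of 8 were, with a median of 0.08. In control cells all 8 were above 0 as well, with a median of 0.29. Within sets the control median was 0.42 in set 1 and 0.15 in set 2, and it was 0.11 (6 of 8 above 0) without the cytoplasm control array of set 1. EIF4G1 then went from 1.05 to -1.21, although in control cells it read higher in polysomes within each set. With RHA siRNA the eIF4 median was -0.08. The eIF3 median was 0.10 in control cells and -0.25 with RHA siRNA, and the elongation median was 0.05 in both. Without that array the control medians were -0.17 for eIF3 and -0.33 for elongation. In control cells 34 of 84 probe sets were higher in polysomes in both sets (background 30.5%) and 10 lower (20.2%), and 8 were higher (8.67%) and 2 lower (5.22%) without overlap. The largest brightest probe sets without overlap were EIF3B (1.18), EIF6 (0.48) and the eIF2B subunit EIF2B3 (0.35), and EIF2S1 (-0.12) was the only brightest one lower. The other tested probe sets of EIF2S1 went the opposite way, with higher means in polysome control than in cytoplasm control. EIF3B read 16.3 and 73 in cytoplasm control against 73.7 and 82.5 in polysome control, so set 2 differed by only 0.18 on the log2 scale, and without the set 1 cytoplasm array the value was 0.10. The other tested EIF3B probe set read 38.3 and 47.1 in cytoplasm control and 26.6 and 30.3 in polysome control. That probe set was thus lower without overlap, at -0.58. With RHA siRNA, 36 of 84 were higher in both sets (background 32%) and 16 lower (24.1%), and 15 were higher (10.1%) and 8 lower (7.42%) without overlap. There EIF3A (0.53), EIF5A (0.49) and EEF1D (0.46) were higher in polysomes without overlap, and the eIF3 subunits EIF3L (-0.80), EIF3H (-0.59) and EIF3F (-0.50) were lower. EIF3H read 2926 and 2871 in cytoplasm RHA siRNA and 1500 and 2479 in polysome RHA siRNA.

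**Figure D4:**
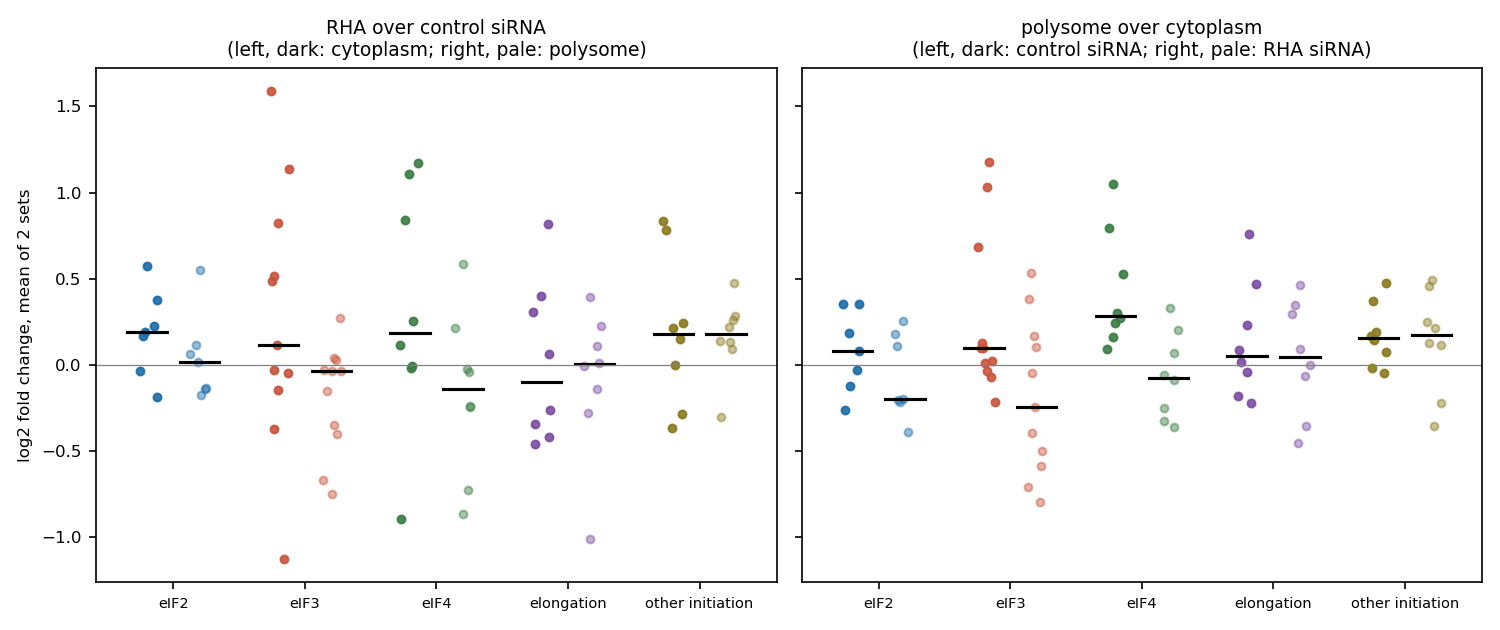
Log2 fold changes of the 42 brightest probe sets by subgroup, as means of both sets, with black bars at the medians; the left panel shows RHA over control siRNA in cytoplasm and polysomes, the right panel polysome over cytoplasm in control and RHA siRNA cells. The eIF4 medians lie at 0.18 and -0.14 on the left and at 0.29 and -0.08 on the right, amid wide spreads within each subgroup.

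Factors whose mRNAs are known for a TOP tract were taken as a separate list of 11, of which 6 were tested. Their median polysome over cytoplasm difference over both siRNAs was 0.08 (4 of 6 above 0). The 39 tested genes of cytosolic ribosomal proteins, whose mRNAs share that tract, had a median of -0.10, with 12 of 39 above 0. With the set 1 cytoplasm control array left out these medians were -0.12 (2 of 6) and -0.03 (17 of 39). The median siRNA difference over both fractions was -0.03 for the 6 factors and 0.02 for the ribosomal proteins, and -0.07 and 0.09 without that array.

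EEF1A1, the main eEF1A and 1 of the TOP mRNAs, was read by control probe sets at the 5' end, the middle and the 3' end of its transcript. At the 3' end its intensity was 9328 on the cytoplasm control array of set 1, within the 7395 to 10679 of the other arrays. At the 5' end the same array read 4406, against 6164 to 8685 elsewhere, and in the middle 4950 against 8017 to 11379. The log2 ratio of the 3' to the 5' reading was 1.08 on that array. It lay between 0.43 and 0.66 on the other arrays of set 1, and between -0.23 and 0.10 in set 2. The array whose omission moved many of the values above was thus also the one with the lowest 5' reading of EEF1A1, and the part of this in those results was not tested.

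**Figure D5:**
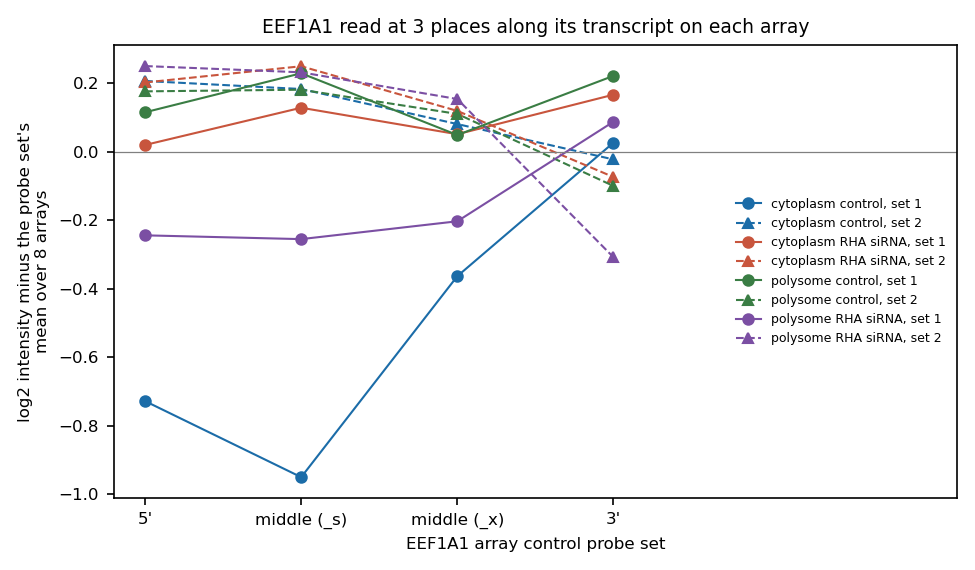
Log2 intensity of EEF1A1 at 4 array control probe sets along its transcript, each minus the mean of that probe set over the 8 arrays, with circles and solid lines for set 1 and triangles and dashed lines for set 2. The cytoplasm control array of set 1 lies lowest at the 5' end (-0.73) and in the middle (-0.95) and at 0.03 at the 3' end.

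More of these genes differed between the sets than between the siRNAs, where limma passed 0. Of the 42 brightest probe sets 13 (31%) differed between sets by limma, 9 of them higher in set 2, against 51.3% of all probe sets. Next to EIF4G1, the largest set differences among these were in EIF5B (3.63-fold higher in set 2), EIF2S3, the gamma subunit of eIF2 (3.32-fold), EEF1AKMT3 (3.14-fold), EEF1AKMT1 (2.97-fold), EIF3D (2.22-fold) and EIF4E3 (2.07-fold). In the opposite direction, EIF1AD, EIF4E, EIF1 and EEFSEC were at 0.51, 0.53, 0.66 and 0.69 of their set 1 level. By subgroup, 1 of 7 eIF2, 1 of 11 eIF3, 3 of 8 eIF4, 4 of 8 elongation and 4 of 8 other initiation genes differed.

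Regulators that act on these factors were taken as a further list of 47 genes, of which 27 were tested, and by limma 0 passed in either direction in any comparison, with or without the replicate block. Over both fractions 16 of 27 were above 0 with RHA siRNA, with a median of 0.04. LARP1, which binds TOP mRNAs, was at 0.57, and RPS6KB1, the S6 kinase downstream of mTOR, at -0.56. PAIP2, an inhibitor of the poly(A)-binding protein, was at -0.44. Each of these 3 had 1 direction in all 4 comparisons within a set, as did 3 higher (11.1%) and 2 lower (7.41%) of the 27 in all, against 10.4% and 9.76% of all genes. With the set 1 cytoplasm control array left out, LARP1 was at 0.21 and 11 of 27 were above 0, with a median of -0.09. Polysome over cytoplasm, 23 of 27 were above 0 over both siRNAs, with a median of 0.13, and 14 of 27 without that array, with a median of 0.00.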

How the data were processed

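Array intensities of 8 samples were analysed. The deposited table holds linear intensity values per probe set, whose array medians were close to each other and which were taken as normalised by the authors. GCOS and RMA are named in the submitters' processing notes, with neither version nor role, and other steps are not given in the sources used here. Scanner files and detection calls were not used here. Probe sets were named from the platform annotation: 24969 carried 1 symbol, 361 several and 27535 none. Values were put on the log2 scale without a pseudocount. The upper 50% of 52766 non-control probe sets by mean log2 (26383) entered a model in limma 3.58.1, run in R 4.3.3 (lmFit, eBayes, two-sided), as 4 groups over all 8 arrays, with 7 contrasts. Benjamini-Hochberg adjusted p-values under 0.05 over all 26383 counted as passing. The fit was tested on simulated data. Figures were drawn with matplotlib 3.10.9.

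Each gene was read by its brightest probe set. Genes named with values were the 3 per direction and contrast with the largest log2 fold change among those whose arrays did not overlap (for loading, with both sets on 1 side), core factors, and DHX9. EIF5, EIF4E3, EIF1 and the genes named for disagreeing probe sets, for set differences or as regulators were described after their values were seen. Members and lists were chosen with earlier results of these data known. Of the tested probe sets, 12 have a suffix marking probes shared between transcripts. The replicate numbers come from the titles and nothing in the labels says that they pair samples. Values of the TOP and regulator lists without 1 array, and the replicate block with each array left out, were added after seeing the data. Alternatives were the replicate block, filters, quantile normalization, a pseudocount of 16, leaving out shared probes, a trended and robust eBayes, the mean over probe sets and leaving out each array. Arrays have no read depth, so precision is limited by their number. Sequences of the members were not used here.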

Additional observations from a re-analysis of the deposited data

Results flagged for a closer look

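The median siRNA difference of the 8 eIF4 genes had opposite signs in the 2 fractions, at 0.184 on the log2 scale in cytoplasm and -0.14 in polysomes, and each sign was the same in set 1 and set 2. The difference between the fractions was not tested for the subgroup. Without the polysome control array of set 1 the polysomal median was 0.11. That value sets the polysome control of set 2 alone against RHA siRNA arrays of both sets, so differences between the sets enter it. In set 2 the medians were close to 0, at 0.03 and -0.00.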

How the results depend on the processing

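With 2 arrays per group, and sets that differed in 51.3% of probe sets, limma without a set term passed 0 translation factor probe sets in each of 7 comparisons. With the replicate block it also passed 0 in each. Across 24 settings the count differed from 0 in 1, the replicate block without the set 2 array of cytoplasm control. The array least like its set is then the lone cytoplasmic control and is assumed to vary like the other groups. There 12 passed in cytoplasm, 8 over both fractions, 4 for polysome over cytoplasm in control cells and 1 over both siRNAs, EIF5, EIF3D, EIF4G3 and EIF3I among them. In each of these comparisons many probe sets of other genes passed in that setting too, so the calls were not confined to translation factors. The numbers of the titles were not shown to pair samples, as 2 pairs are too few to check.

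Of 630 alternative values of subgroup medians 73 had the other sign, in 27 of 42 medians, and the cause was not tested. Over both fractions the eIF4 median was 0.23 in the brighter 25% by brightness and -0.016 without shared probes. The elongation median was -0.10 with no filter and 0.14 as the mean over probe sets. That of the other initiation factors was 0.26 in the brighter 25%, 0.14 after quantile normalization, 0.30 without shared probes and 0.25 as the mean over probe sets. For loading, the elongation median was -0.019 with no filter, 0.017 in the brighter 25% and -0.059 after quantile normalization. For polysome over cytoplasm over both siRNAs, the elongation median was 0.10 in the brighter 25% and -0.012 after quantile normalization. That of the other initiation factors was 0.072 after quantile normalization and 0.12 without shared probes, and that of all 42 genes was 0.020 after quantile normalization.

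Leaving out each array in turn gave these ranges. The group that lost an array was then read by the other set alone, so differences between the sets enter these values. The siRNA median of eIF4 in polysomes was -0.26 to 0.11. Over both fractions the medians were -0.065 to 0.26 for eIF2, -0.077 to 0.30 for eIF3, -0.014 to 0.082 for eIF4, -0.24 to 0.12 for elongation and 0.18 to 0.29 for other initiation factors. For loading they were -0.70 to 0.20 for eIF2, -0.14 to 0.31 for elongation and -0.30 to 0.15 for other initiation factors. For polysome over cytoplasm over both siRNAs they were -0.15 to 0.17 for eIF3, -0.054 to 0.29 for elongation, 0.079 to 0.23 for other initiation factors and -0.024 to 0.18 for all 42 genes. In control cells alone the last was -0.021 to 0.24, and the siRNA difference of all 42 genes in polysomes was -0.17 to 0.046. The loading change of EEF1AKMT2 ran from -0.017 to 1.16 and that of EIF4G1 from -3.67 to 0.85. The siRNA values of EIF3I (-1.08 to -0.73) and EIF4E2 (0.68 to 1.00) over both fractions kept their sign.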
